A study of Mus musculus with 12 samples.

Results

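The genes described here are transcription factors that steer T cells between effector, memory and helper states. They were given as 10 gene symbols, Tbx21, Eomes, Prdm1, Bcl6, Gata3, Runx3, Tcf7, Bach2, Irf4 and Nfil3, and all probe sets that the platform's probe table assigns to 1 of these symbols were taken. This gave 15 of the 45037 probe sets that are not controls, for 9 of the 10 genes. Tcf7 matched no probe set by its symbol and was not analysed here. RNA came from CTLL-2, cytotoxic T cells of the mouse that grow as a line only with the cytokine interleukin 2 (IL-2), and was measured on Affymetrix Mouse430_2 arrays. The labels' protocols state that the cells, kept in human IL-2 at 50 U/mL, were deprived of it for 14 h, and every group was then given 20 µg/mL cycloheximide, which blocks protein synthesis. The first group had 30 min of cycloheximide (4 arrays) and the second 4.5 h (4 arrays). In the third, 30 min of cycloheximide preceded 4 h of 100 U/mL IL-2 (4 arrays, of which 3 were used). The labels do not say whether cycloheximide stayed in the medium during those 4 h, and cells without cycloheximide were not analysed here. All arrays come from 1 cell line. Since no label states that the replicates came from different cultures, the spread that the p-values measure is that of these arrays alone and can be technical.

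T-bet (Tbx21) and eomesodermin (Eomes) are T-box factors that drive type 1 and cytotoxic genes, and Runx3 acts beside them in CD8 T cells. Blimp-1 (Prdm1) promotes terminal effector differentiation, Bcl6 and Bach2 hold it back, and Blimp-1 and Bcl6 repress each other. IL-2 acts largely through the factor STAT5, and its signalling is known to favour Prdm1 over Bcl6. Cycloheximide removes responses that need newly made protein, so it is used to separate direct from secondary responses.

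The promoters of the 4 genes called in any comparison (Bcl6, Prdm1, Tbx21 and Irf4) are shown, because IL-2 acts through STAT5 and the members differ in the letters found there. Each window is the 250 bases before an annotated start, 5′ to 3′ on the gene's strand, from RefSeq on GRCm38.p6. Capitals mark matches to 3 motifs searched on both strands, TTCNNNGAA for STAT factors, TGANTCA for AP-1, and the IRF motif, which is GAAA repeated after any pair of bases. Of 32851 promoter windows of this length, 7.02% held the STAT letters, 6.75% the AP-1 letters and 2.98% the IRF letters. The 2 Bcl6 windows are chr16:23988853-23989102 and chr16:23981284-23981533, both on the minus strand, and the second lies inside the annotated gene. The others are chr10:44458749-44458998 on the minus strand, chr11:97115332-97115581 on the minus strand and chr13:30748983-30749232 on the plus strand.
Bcl6, upstream start: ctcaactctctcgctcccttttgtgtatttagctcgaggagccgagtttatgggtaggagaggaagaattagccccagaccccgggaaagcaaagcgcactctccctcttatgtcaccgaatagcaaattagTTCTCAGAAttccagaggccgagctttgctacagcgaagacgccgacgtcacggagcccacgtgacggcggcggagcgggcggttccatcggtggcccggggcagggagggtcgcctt
Bcl6, downstream start: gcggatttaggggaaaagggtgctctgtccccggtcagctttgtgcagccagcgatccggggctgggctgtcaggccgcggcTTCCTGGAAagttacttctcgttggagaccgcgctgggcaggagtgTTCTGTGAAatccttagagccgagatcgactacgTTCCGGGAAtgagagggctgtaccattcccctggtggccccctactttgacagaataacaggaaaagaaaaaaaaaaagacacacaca
Prdm1: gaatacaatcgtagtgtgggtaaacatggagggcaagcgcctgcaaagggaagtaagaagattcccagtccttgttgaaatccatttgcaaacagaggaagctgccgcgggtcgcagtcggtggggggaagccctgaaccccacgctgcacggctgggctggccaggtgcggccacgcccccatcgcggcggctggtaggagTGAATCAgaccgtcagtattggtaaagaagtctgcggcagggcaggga
Tbx21: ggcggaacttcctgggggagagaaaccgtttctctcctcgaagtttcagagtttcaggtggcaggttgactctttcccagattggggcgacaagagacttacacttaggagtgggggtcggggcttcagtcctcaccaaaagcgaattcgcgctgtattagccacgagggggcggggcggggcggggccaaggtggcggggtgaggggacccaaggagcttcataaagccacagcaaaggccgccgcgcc
Irf4: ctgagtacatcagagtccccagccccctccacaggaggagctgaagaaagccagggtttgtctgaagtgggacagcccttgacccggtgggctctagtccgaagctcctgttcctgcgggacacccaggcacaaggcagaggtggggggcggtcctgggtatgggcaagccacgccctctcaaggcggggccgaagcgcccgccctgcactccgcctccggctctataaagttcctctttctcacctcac
The upstream Bcl6 window held 1 STAT match, TTCTCAGAA, which begins at base -118 counted from the start. The downstream window held 3, TTCCTGGAA at -168, TTCTGTGAA at -122 and TTCCGGGAA at -88, and 9 of the 32851 windows (0.0274%) held 3 or more. The Prdm1 window held 1 AP-1 match, TGAATCA, at -48. No match was found in the Tbx21 and Irf4 windows, which says only that these letters are not there. Among the other members, Eomes had an IRF match at -154 and Bach2 a STAT match at -140. None of these matches overlap, and they describe sequence, not binding. The cut of 3 or more STAT matches equals the count in the downstream Bcl6 window, so the share of windows reaching it is description and not support.

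The array labelled IL-2 replicate 3 was left out. It read 8.4 units for Ptprc, the leukocyte surface protein CD45, and 19044.6 for Myod1, a muscle lineage factor, against 16201 to 36740.5 and 4 to 84.6 on the other 11 arrays. On those 11 arrays 10 of 14 T cell markers, the CD3 chains and the cytotoxic proteins Gzmb and Prf1 among them, read over 500 units on every array. Cd4, Cd2 and Cd5 stayed under 100, and Cd8a read 87.3 to 334.8, while Cd8b1, the other CD8 chain, read 2595.5 to 6232.6. The B cell list had 5 of 6 markers under 100, the natural killer cell list 2 of 2, the erythroid list 2 of 2, the myeloid list 3 of 7 and the fibroblast list 4 of 6. The summed signal of 8 muscle markers was 3819 to 5029 units at 4.5 h, 2418 to 3276 at 30 min and 2389 to 2832 with IL-2. Ckm, muscle creatine kinase, made up most of it at 2097 to 4563 units, while Myod1, Myog, Myh3 and Tnnt3 stayed under 100. On the left-out array that sum was 118934 units. Not every muscle marker was high there: Ckm read 1690 units, below the other 11 arrays, and Des read 92.4, within their 3.1 to 102.4. The summed T cell signal was 185614 to 234648 units at 4.5 h, 186921 to 271506 at 30 min and 159550 to 171553 with IL-2. The part of these shifts in the results was not tested.

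No array of another group shared the scan day of the 4.5 h arrays, and in both comparisons with that group scan day and treatment cannot be told apart. The Actb control probe sets, read as log2 of the 3′ minus the 5′ signal for RNA quality, gave 0.56 ± 0.17 at 4.5 h (SD, n = 4), against 0.29 ± 0.04 (SD, n = 4) at 30 min and 0.25 ± 0.03 (SD, n = 3) with IL-2. Its part in the results was not tested. Another scan day held all 3 IL-2 arrays used and 3 of the 30 min arrays, which allowed a comparison within that day. Those groups differ in time as well as in IL-2. In these bulk samples fewer cells expressing a gene and less RNA per cell cannot be told apart.

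At matched time, that is after 4 h of IL-2 against 4.5 h of cycloheximide alone, Irf4 was 5.49-fold higher with IL-2, and Tbx21 was 3.03-fold and Bcl6 2.55-fold lower. The Bcl6 call rests on its brighter probe set, as given below. Eomes, Prdm1, Gata3, Runx3, Bach2 and Nfil3 did not pass both thresholds. A call required an adjusted p under 0.05 from limma (Benjamini-Hochberg over 27022 probe sets) and a difference of at least 2-fold on the log2(signal + 16) scale, which understates the changes of dim genes. A gene stood by its brightest probe set. Thus 1 of 9 members was called higher and 2 lower, where 5.04% of 12753 genes were called higher and 5.94% lower by the same rule. Over all probe sets 6.63% were called higher and 5.51% lower. At any fold 3 of 9 members passed the adjusted p, where 27.6% of probe sets did. The median difference of the 9 members was 0.03 (log2), against -0.02 for all tested probe sets. With the left-out array included, 0 members were called in any of the 3 comparisons by limma (1, 0 and 1 at an unadjusted p under 0.05), and the matched-time differences were -2.94 for Tbx21 (adjusted p = 0.104), -0.47 for Bcl6 (adjusted p = 0.715) and 1.44 for Irf4 (adjusted p = 0.337).

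The other main comparison sets 4.5 h of cycloheximide alone against 30 min. Cells at 4.5 h had also been longer without IL-2, so time in cycloheximide and longer deprivation cannot be told apart there. Prdm1 fell 2.97-fold and Irf4 fell 2.68-fold, and no member was called higher by limma (2 were higher at an unadjusted p under 0.05). Those 2 were Tbx21, which passed the adjusted p at 1.84-fold, and Eomes, whose other probe set was lower (-0.48, log2). The calls were 0 of 9 higher and 2 lower, where 7.22% of genes were called higher and 4.75% lower, and over all probe sets 6.48% and 6.76%. Setting IL-2 against the 30 min group, Bcl6 was 3.60-fold and Prdm1 2.16-fold lower, again 0 of 9 higher by limma (1 at an unadjusted p under 0.05) and 2 lower, where 6.94% of genes were called higher and 4.46% lower and over all probe sets 6.32% and 4.26%. The IL-2 and 30 min groups also differ by 4 h of incubation, so IL-2 and time cannot be told apart there. The 3 comparisons share their groups of arrays and are not independent. At any fold 5 of 9 members passed the adjusted p over time, where 31.5% of probe sets did, and 3 of 9 against 30 min, where 23.4% did. Median differences of the 9 members were -0.50 over time and -0.33 for IL-2 against 30 min, beside 0.01 and -0.04 for all tested probe sets.

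**Figure D1:**
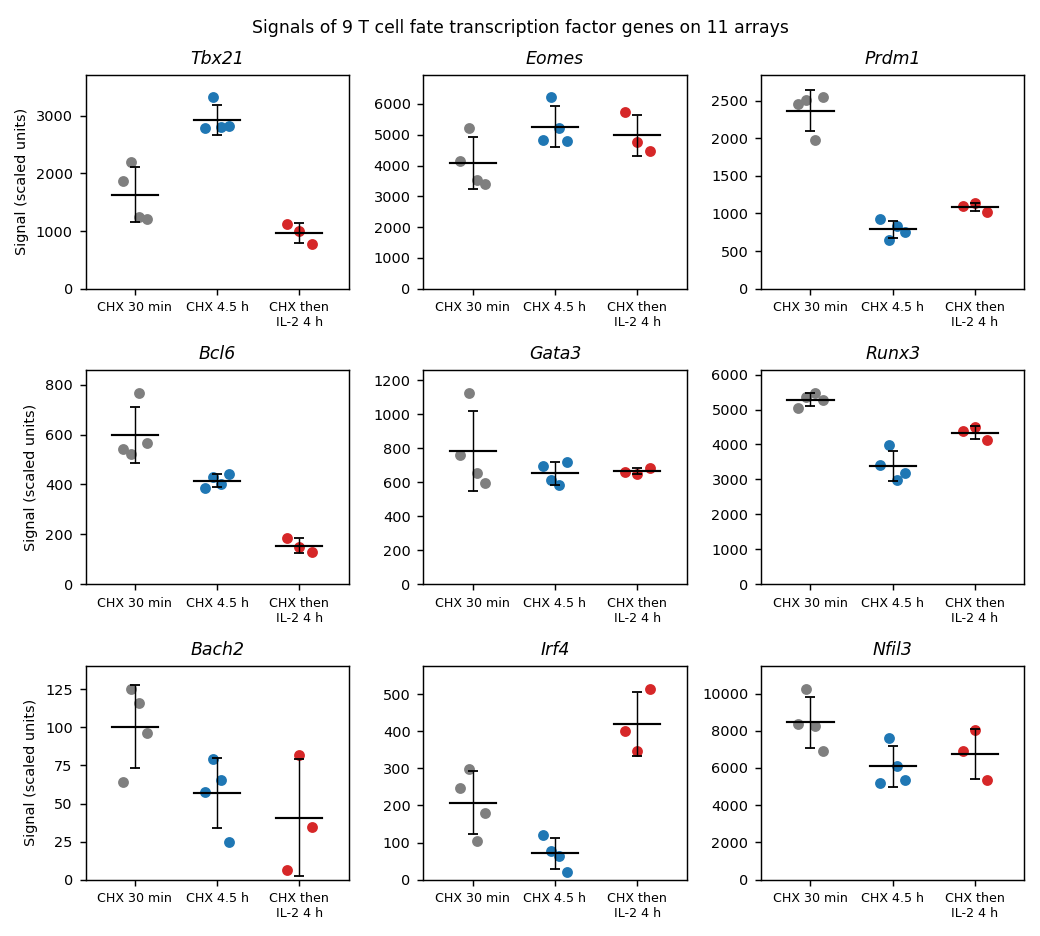
Signal in scaled units (linear axis from 0) of the 9 genes on each of the 11 arrays by group, each gene by its brightest probe set, with points for arrays, horizontal lines for group means and error bars for the SD. Tbx21 is highest on the 4 arrays at 4.5 h, Prdm1 on the 4 arrays at 30 min and Irf4 on the 3 arrays with IL-2.

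**Figure D2:**
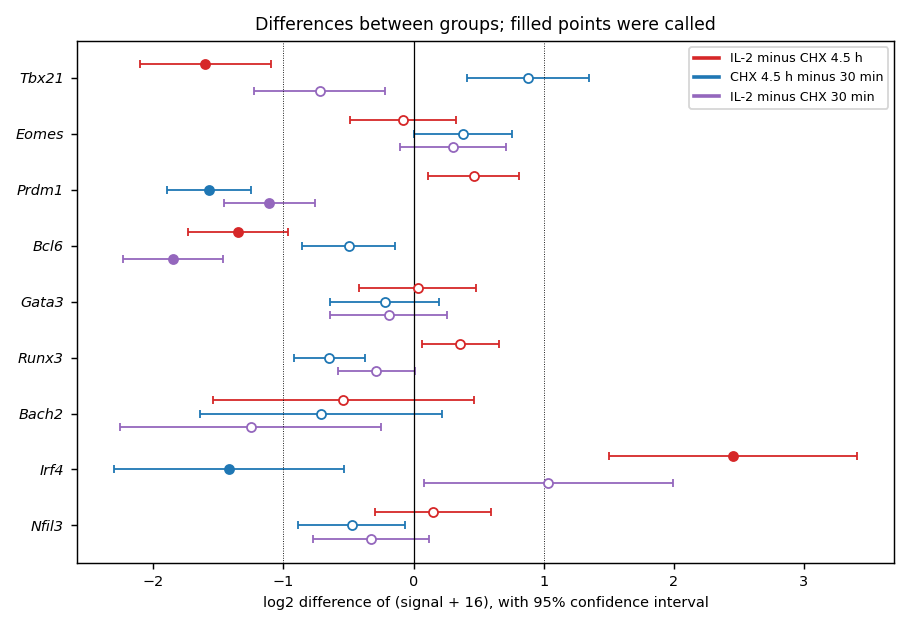
Differences in log2(signal + 16) for the 9 genes in the 3 comparisons, with 95% confidence intervals, and filled points for called genes. At matched time Irf4 lies at 2.46, Bcl6 at -1.35 and Tbx21 at -1.60.

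Among the T-box factors, Tbx21 gave 2784, 3320.4, 2799 and 2833 units on the 4.5 h arrays. It gave 1870, 2205, 1251 and 1213 units at 30 min. With IL-2 it gave 1120.3, 999.7 and 773.5 units. All IL-2 arrays lay below all others, and all 4.5 h arrays above all others, so the groups did not overlap. The matched-time difference was -1.60 ± 0.23 (log2, SE; adjusted p = 0.000746, limma). From 30 min to 4.5 h the difference was 0.88 ± 0.21 (adjusted p = 0.00951, limma), which passed the p threshold at 1.84-fold and was not called. IL-2 against 30 min gave -0.72 ± 0.23 (adjusted p = 0.0426, limma), and within the shared scan day, with 3 arrays a group, -0.83 (adjusted p = 0.0941, limma). Without 30 min replicate 2 the rise over time was called, at 1.04 (adjusted p = 0.00405, limma).

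Eomes is measured by 2 probe sets that did not move alike. By the brightest the group means were 4983 ± 657 units with IL-2 (SD, n = 3), 5265 ± 659 at 4.5 h (SD, n = 4) and 4076 ± 835 at 30 min (SD, n = 4). The matched-time difference was -0.08 ± 0.18 (95% interval -0.49 to 0.33, adjusted p = 0.790, limma), with overlapping groups. By the other the IL-2 arrays read 5966, 5655 and 4688 units, against 3043, 3869.7, 3193 and 3114 at 4.5 h. All IL-2 arrays lay higher, and the difference was 0.71 ± 0.19 (adjusted p = 0.0195, limma), under 2-fold. The log2 difference between the first and the second probe set was 0.67 ± 0.04 at 4.5 h (SD, n = 4), -0.19 ± 0.16 at 30 min (SD, n = 4) and -0.13 ± 0.11 with IL-2 (SD, n = 3). The shift of -0.79 between IL-2 and 4.5 h had an exact two-sided permutation p = 0.0286, the smallest that 35 arrangements allow, and 0.114 after adjustment over 12 such tests. The shift of 0.86 from 30 min to 4.5 h gave the same p values over 70 arrangements. No direction is therefore given for Eomes.

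**Figure D3:**
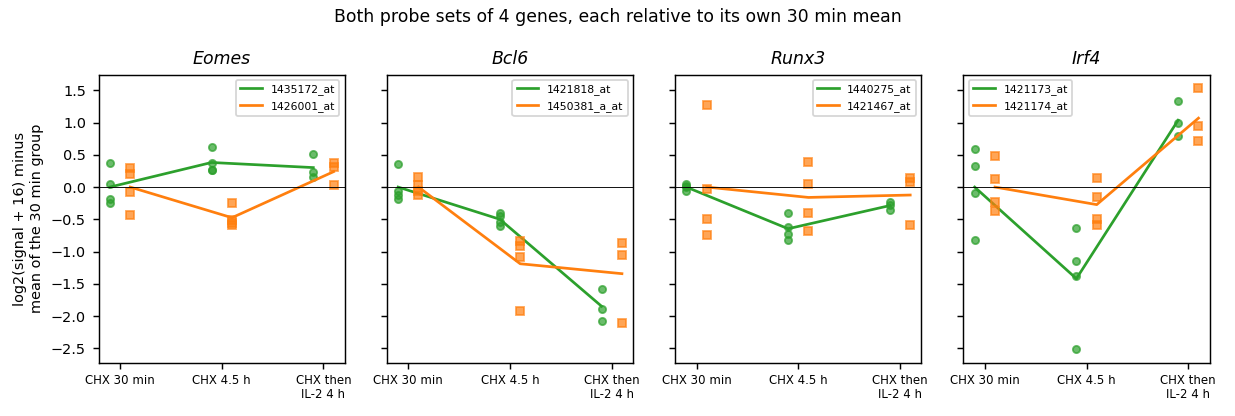
The 2 tested probe sets of Eomes, Bcl6, Runx3 and Irf4 on 11 arrays, each as log2(signal + 16) minus its own mean at 30 min. Circles are the brighter probe set, squares the dimmer one by the mean over arrays, points are arrays and lines join group means. Relative to 30 min the Eomes probe sets lie 0.86 apart at 4.5 h and 0.06 apart with IL-2.

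Runx3, by its brightest probe set, read 5039, 5345, 5473 and 5280.2 units at 30 min, 3416, 3973, 2973 and 3194 at 4.5 h, and 4372, 4490.5 and 4125 with IL-2. The IL-2 arrays lay between the other groups with no overlap. The difference over time was -0.65 ± 0.12 (adjusted p = 0.00298, limma), or 1.56-fold, and was not called. The matched-time difference was 0.36 ± 0.13 (adjusted p = 0.0700, limma). The dimmer probe set differed by 0.04 ± 0.45 at matched time, with overlapping groups.

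Of the antagonists Prdm1 and Bcl6, Prdm1 read 2449, 2512, 1971 and 2542 units at 30 min, 924.1, 648.2, 828.5 and 754.4 at 4.5 h, and 1097.4, 1136.9 and 1021.9 with IL-2. The 30 min arrays were all above the rest, and the IL-2 arrays all lay above the 4.5 h arrays. Over time it fell by 1.57 ± 0.15 on the log2 scale (adjusted p = 6.87e-05, limma), and between 30 min and IL-2 by 1.11 ± 0.16 (adjusted p = 0.000710, limma). Within the shared scan day the latter was -1.19 (adjusted p = 0.00691, limma). The matched-time difference was 0.46 ± 0.16 (95% interval 0.11 to 0.81, adjusted p = 0.0507, limma), which missed the threshold.

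Bcl6, by its brighter probe set, read 540.4, 521.1, 766.5 and 567.7 units at 30 min, 383.8, 429.5, 402.3 and 442.6 at 4.5 h, and 186.3, 148.8 and 128.3 with IL-2. The 3 groups were ordered with no overlap, IL-2 lowest. The difference was -1.35 ± 0.17 at matched time (adjusted p = 0.000427, limma) and -1.85 ± 0.17 against 30 min (adjusted p = 6.67e-05, limma). Within the shared scan day the latter was -1.73 (adjusted p = 0.00496, limma). From 30 min to 4.5 h it was -0.50 ± 0.16 (adjusted p = 0.0359, limma), under 2-fold. The dimmer probe set gave 78.6 ± 37.4 units with IL-2 (SD, n = 3), 86.8 ± 30.2 at 4.5 h (SD, n = 4) and 210 ± 18.4 at 30 min (SD, n = 4). It was called lower over time, at -1.19 ± 0.30 (adjusted p = 0.0121, limma), and against 30 min, at -1.34 ± 0.32 (adjusted p = 0.0123, limma), but at matched time it differed by -0.15 ± 0.32. The matched-time call therefore rests on the brighter probe set, and with the mean of both it was -0.75 (adjusted p = 0.0109, limma), under 2-fold. The log2 difference between the brighter and the dimmer probe set shifted by -1.19 between IL-2 and 4.5 h. Its exact two-sided permutation p was 0.0286, and 0.114 after adjustment over 12 such tests, the same as for Eomes. The size of the Bcl6 difference at matched time is therefore uncertain.

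Bach2, which restrains effector genes, was dim. Its brightest probe set read 6.2, 81.7 and 34.5 units with IL-2, 57.4, 79.5, 65.4 and 25 at 4.5 h, and 64.3, 125.5, 116 and 96.2 at 30 min. The groups overlapped, the matched-time difference was -0.54 ± 0.45 (95% interval -1.54 to 0.46) and that against 30 min was -1.25 ± 0.45 (adjusted p = 0.0719, limma). Without IL-2 replicate 2 the latter was -1.77 (adjusted p = 0.0169, limma) and was called. The other 2 Bach2 probe sets did not pass the filter on low signals, at 4.8 to 36.9 and 1.2 to 65 units, and were not tested, so 13 of the 15 probe sets were.

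Irf4, which couples antigen receptor signals to effector expansion, was the only member called higher with IL-2. By its brighter probe set it read 400.3, 346.3 and 515.3 units with IL-2, 119.7, 78.6, 64.8 and 20.7 at 4.5 h, and 246.9, 299.2, 103.5 and 181.1 at 30 min. Every IL-2 array exceeded every other array, and the other groups overlapped. The matched-time difference was 2.46 ± 0.43 (adjusted p = 0.00229, limma), and by the dimmer probe set it was 1.34 ± 0.27 (adjusted p = 0.00504, limma). Over time it was -1.42 ± 0.40 (adjusted p = 0.0206, limma), but -0.27 ± 0.25 by the dimmer probe set. That call was lost without 30 min replicate 1 (-1.31, adjusted p = 0.0533, limma) or replicate 2 (-1.23, adjusted p = 0.0548, limma). Against 30 min it was 1.04 ± 0.43 (adjusted p = 0.112, limma) and 1.07 ± 0.27 by the dimmer probe set (adjusted p = 0.0169, limma), the latter called.

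Gata3, the leading type 2 factor, read 664 ± 17.7 units with IL-2 (SD, n = 3), 651 ± 65.1 at 4.5 h (SD, n = 4) and 784 ± 238 at 30 min (SD, n = 4). All groups overlapped, and the matched-time difference was 0.03 ± 0.20 (95% interval -0.42 to 0.48). Nfil3, a leucine zipper factor needed for natural killer cell development, read 6763 ± 1354, 6082 ± 1109 and 8451 ± 1375 units in the same order. Its matched-time difference was 0.15 ± 0.20 (95% interval -0.30 to 0.60) and that over time -0.48 ± 0.19 (adjusted p = 0.0774, limma), with overlapping groups.

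The size of these differences depends on how arrays are scaled. Ribosomal protein probe sets, used as a reference below, were themselves not level between groups on the deposited scale. On average they read lower with IL-2 than in both other groups, and higher at 4.5 h than at 30 min. Which scale is nearer to the true amounts was not tested. Centring on ribosomal protein probe sets moved the median of all tested probe sets to 0.70 at matched time, -0.30 over time and 0.36 for IL-2 against 30 min, and 96.6%, 16.7% and 91.3% of calls were then higher, against 54.6%, 48.9% and 59.7%. On that scale Tbx21 at matched time was -0.89 (adjusted p = 0.00698, limma) and Bcl6 -0.63 (adjusted p = 0.0433, limma), both under 2-fold, while Prdm1 at 1.18 and Runx3 at 1.07 were called higher. Irf4 stayed called, at 3.17. Prdm1 against 30 min was -0.71 (adjusted p = 0.0715, limma). Centring on the median made 73.0% of calls higher for IL-2 against 30 min and put Prdm1 there at -0.98, just under 2-fold.

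Other genes of the same pathways came from 7 lists, and shares are of the genes in a list that passed the filter on low signals. Among all 12753 genes tested, 11% were called in either direction at matched time, 12% over time and 11.4% against 30 min. Of 33 partner transcription factors tested, 3 were called higher and 4 lower at matched time (21.2%, median -0.10). Id3, an inhibitor of E proteins, was 682.6 ± 27.6 units with IL-2 and 130.9 ± 61.3 at 4.5 h (SD, n = 3 and 4), a difference of 2.33 ± 0.36 (adjusted p = 0.00113, limma). Batf and Batf3, partners of Irf4 on DNA, differed by 1.04 ± 0.18 and 1.06 ± 0.25. Lef1, a factor of the same family as Tcf7, was at 607.9 ± 139 units with IL-2 and 1781 ± 140 at 4.5 h, a difference of -1.55 ± 0.23 (adjusted p = 0.000934, limma), and Irf8 and Myb differed by -1.08 ± 0.15 and -1.29 ± 0.34. Hic1, a transcriptional repressor named after its value was seen, was the remaining lower call at -1.11 ± 0.36 (adjusted p = 0.0427, limma). Under ribosomal protein centring all 4 lower calls were lost and the split became 10 higher and 0 lower, with a median of 0.61 (0.01 after quantile normalization). Over time Id2, another E protein inhibitor, fell by 1.78 ± 0.17 on the log2 scale (adjusted p = 6.81e-05, limma) and Hopx by 1.26 ± 0.22, while Batf3 and Id3 rose 2.46-fold and 2.24-fold (2 higher, 2 lower, 12.1%, median 0.25). Both of these rises fell short of the thresholds under ribosomal protein centring, at 0.99 and 0.85, and the median turned to -0.06. Against 30 min, 3 were higher and 3 lower (18.2%, median -0.10). Id3 led at 3.49 ± 0.36, with Batf3 at 2.36 ± 0.25 and Batf at 1.48 ± 0.18. Id2 was lower at -1.43 ± 0.18, Stat6 at -1.02 ± 0.22 and Myb at -1.06 ± 0.34. The calls of Stat6 and Myb were lost under median centring (-0.90 and -0.93) and ribosomal protein centring (-0.62 and -0.66), where the list's median was 0.03 and 0.30.

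Of 19 effector genes tested, 3 were called higher and 1 lower at matched time (21.1%), and the median was -0.45, but 0.10 after quantile normalization and 0.26 after ribosomal protein centring, which gave 6 higher and 0 lower. Ifng, the type 1 cytokine that T-bet is known to activate, was 888.6 ± 150 units with IL-2 and 86.7 ± 34.8 at 4.5 h, a difference of 3.19 ± 0.35 (adjusted p = 0.000193, limma), on arrays where Tbx21 was lower. Cx3cr1 and Il12rb2 were 2.64-fold and 2.47-fold higher. Ccl5, a chemokine, read 17.2 ± 18.6 units with IL-2 (SD, n = 3) and 90.9 ± 8.99 at 4.5 h (SD, n = 4), a difference of -1.82 ± 0.39. The IL-2 mean lay below the 33.6 units of the filter and no detection call was used, so the size of that difference is uncertain, and the call was lost under ribosomal protein centring (-1.11). Over time Cxcr3, a chemokine receptor and T-bet target, rose by 2.08 ± 0.31 (adjusted p = 0.000764, limma), Ccl5 and Itgae also rose, and Fasl, Il2rb and S1pr5 fell (3 and 3, 31.6%, median 0.23). Ribosomal protein centring gave 1 higher and 5 lower with a median of -0.09, and Ccl5 (adjusted p = 0.0604, limma) and Itgae (adjusted p = 0.0510, limma) were not called. S1pr5 read 13.8 ± 20.5 units at 4.5 h and 18.2 ± 12.9 with IL-2, below the filter's value, against 124.3 ± 15.5 at 30 min. It passed the filter only through the 30 min group. Ccl5, at 26.1 ± 18.3 units at 30 min (SD, n = 4), passed only through the 4.5 h group. The calls of S1pr5 and Ccl5 in those directions are therefore description and not support. Against 30 min Ifng and Cxcr3 were higher and S1pr5 lower (15.8%), and the median was -0.32, but 0.02 after quantile normalization and 0.09 after ribosomal protein centring.

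In the naive and memory list, 2 of 11 genes were higher and 1 lower at matched time (27.3%, median 0.53), and 6 higher and 0 lower under ribosomal protein centring (median 1.25). Cd28, the costimulatory receptor, was 1407 ± 142 units with IL-2 and 238.9 ± 59.2 at 4.5 h (2.51 ± 0.29, adjusted p = 0.000253, limma), and over time it fell by 2.79 ± 0.27 on the log2 scale. With Id3 higher this made 1 and 1 over time (18.2%), or 0 and 2 under ribosomal protein centring, and against 30 min Id3 alone was called (9.09%). Of 14 type 2 genes only 5 were tested. Of these 5, 2 were higher at matched time (40%, median 1.02), Ccr4 at 1.72 ± 0.20 and the IL-4 receptor Il4ra at 1.25 ± 0.16. Against 30 min 3 were higher (60%), with Il24 added. Of 11 follicular helper genes 5 were tested, and 0 were called by limma in any comparison (0, 1 and 0 at an unadjusted p under 0.05). Of 5 small MAF and BACH genes, Maff was higher at matched time at 2.24 ± 0.47, 1 of 5 (20%). Over time Mafk was higher at 1.21 ± 0.18 (20%), but 0.90 and not called under ribosomal protein centring, which gave 0 higher and 2 lower. Against 30 min Mafk and Maff were higher, both at 1.68, and Hmox1, the heme oxygenase that BACH factors are known to repress, was lower at 339.6 ± 158 units against 658.7 ± 93.3 (SD, n = 3 and 4; adjusted p = 0.0421, limma; 60% of the list called). The Hmox1 call was lost under median centring (-0.88) and ribosomal protein centring (-0.60). Of 9 clock and PAR leucine zipper genes, which include Nfil3 relatives, Cry2, Clock and Per2 were higher at matched time (33.3%), where the median was -0.03, but 0.01 under median centring and 0.68 under ribosomal protein centring. Dbp and Per1 were higher over time (22.2%). Against 30 min Dbp at 1.41 ± 0.15, Clock at 1.11 ± 0.20, Per2 at 2.06 ± 0.50 and Per1 at 1.09 ± 0.30 were higher (44.4%, median 0.83), of which Clock and Per1 were not called after quantile normalization (0.99 and 0.97). With the array labelled IL-2 replicate 3 included, Id3, Lef1, Cx3cr1, Maff, Per2 and Cry2 were still called at matched time. Ifng, Cd28, Batf, Batf3, Irf8, Myb, Hic1, Il12rb2, Ccr4, Il4ra, Clock and Ccl5 were not. That array read high for most muscle markers and low for T cell genes, so neither a kept nor a lost call tests the IL-2 response. Across lists the share of called members ran from 0 to 60%, over denominators as small as 5 genes, beside 11 to 12% of all genes.

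**Figure D4:**
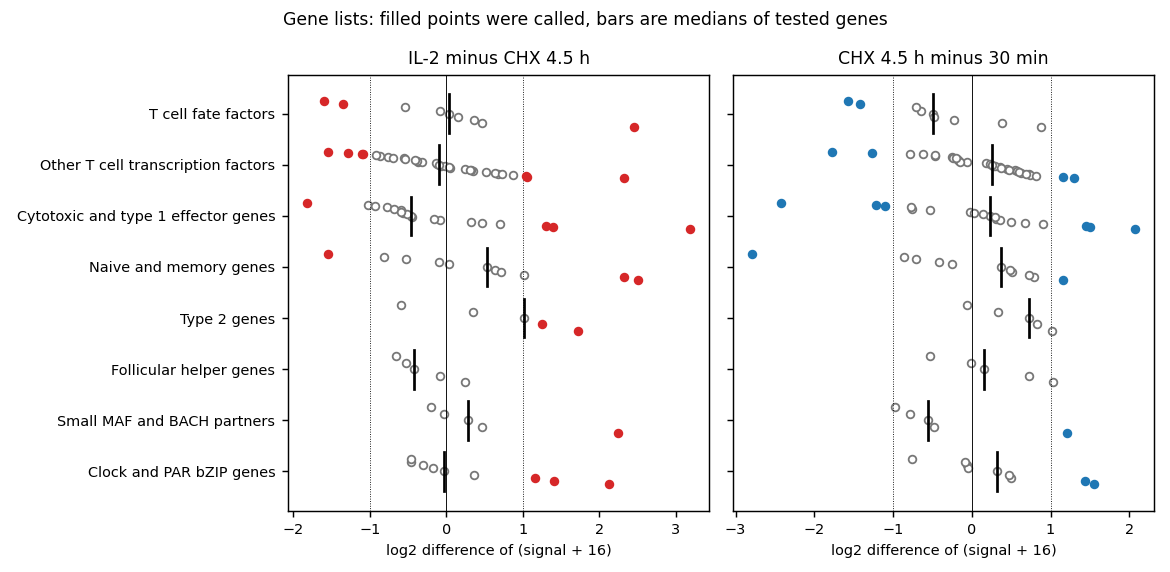
log2 differences of (signal + 16) for the tested genes of each list and of the T cell fate factors for IL-2 at matched time and for 4.5 h against 30 min, with filled points for called genes, bars for list medians and dotted lines at 2-fold. The lists spread to both sides of 0, with type 2 genes at a median of 1.02 at matched time.

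The genes whose pattern was most like a member's, over 11 arrays and 11929 genes, are given as a description, since the arrays fall into 3 groups. Tbx21 was most like Ten1 and Gstm1 (Pearson r = 0.986 and 0.986) and Vasp (0.984). Prdm1 was most like Mtss1 (0.977), Nr2c2 (0.976) and Fam114a1 (0.976). Bcl6 was most like Ccne2 (0.990), Klhdc3 (0.985) and Zc2hc1a (0.983), and Irf4 like Adamts4 (0.942), Mrpl50 (0.935) and Slc39a8 (0.934).

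**Figure D5:**
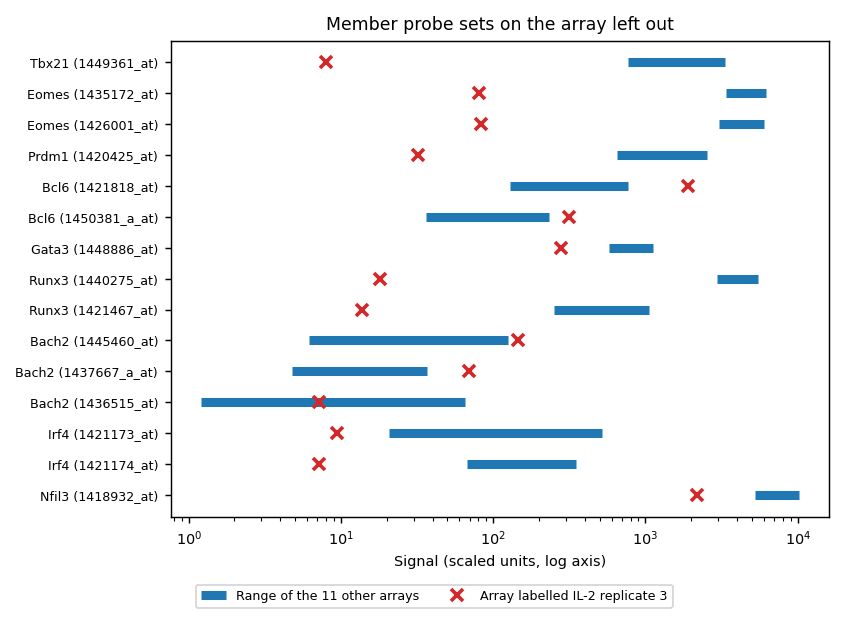
Signals of the 15 member probe sets (log axis, scaled units) on the array labelled IL-2 replicate 3, beside the range over the other 11 arrays. It lies below all of them for 10 probe sets, above all for 4 and within the range for 1.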

How the data were processed

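Per the submitters' processing notes the signals were made with GCOS 1.3. The deposited table gives 1 intensity per probe set and array on a linear scale, which the authors scaled to a common trimmed mean: it was 500 on every array with 2% left off each end. Scanner text files, per the file headers, served only to number scan days. Detection calls were not used. The number of arrays limits the precision.

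Of 45101 probe sets, 64 controls were left out of tests. The platform's probe table gave 34945 probe sets 1 gene symbol, 932 several and 9160 none. log2(signal + 16) was fitted with limma 3.58.1 in R 4.3.3 (lmFit and eBayes) over the 11 arrays in 3 groups, with no covariates, on the 27022 probe sets whose mean reached the 40th percentile (33.6 units). A call needed an adjusted p under 0.05 and 2-fold. The script was tested on simulated data. Probe set pairs were compared by exact permutation tests, 12 in all. Figures used matplotlib 3.10.9.

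All members were named, plus up to 3 called genes per list, direction and comparison by smallest p, and the 3 genes most correlated with each called member. Members and lists were chosen with earlier results of these data known. Alternatives covered scaling, pseudocount, filter, thresholds, probe set choice, scan day, replicate block and each array left out. The scan day as a random block was chosen after seeing the data.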

Additional observations from a re-analysis of the deposited data

Results flagged for a closer look

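On 2 occasions 1 of 4 arrays stood apart from the rest of its group by Dixon's criterion, out of 30 sets of 4 arrays examined, and chance alone gives some. Tbx21 read 3320.4 units on 4.5 h replicate 2 against 2784 to 2833 on the other 3. Prdm1 read 1971 units on 30 min replicate 3 against 2449 to 2542. The array labelled IL-2 replicate 3, which was left out of the reported comparisons and enters only the recomputation with 12 arrays, read above every other array for Bcl6, at 1913 units against 128.3 to 766.5 by the brighter probe set and at 312.6 against 36.3 to 233.4 by the dimmer. It did so for Bach2 too, at 145.9 units against 6.2 to 125.5 by its brightest probe set and at 69.1 against 4.8 to 36.9 by another.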

How the results depend on the processing

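Of 711 member differences recomputed under alternatives, 656 kept their direction and side of the threshold, 24 fell short of it, 12 newly passed and 19 turned, none of the last among called differences. Turned values at matched time were, with 12 arrays, -0.67 (Prdm1), -0.27 (Gata3), -1.39 (Runx3) and -0.25 (Nfil3); with ribosomal protein centring 0.64 (Eomes) and 0.18 (Bach2); for Gata3 -0.0011 after quantile normalization, -0.029 with the replicate block and -0.020 without 4.5 h replicate 3; for Eomes 0.32 by the mean of its probe sets, 0.71 by its other probe set and 0.0028 without 4.5 h replicate 2; and for Bach2 0.014 without IL-2 replicate 1. Over time Eomes was -0.047 by the mean and -0.48 by the other. Against 30 min Eomes was -1.12 with 12 arrays, and with ribosomal protein centring Gata3 was 0.21, Runx3 0.11 and Nfil3 0.074. In the order matched time, over time and against 30 min, called probe sets numbered 1196, 1885 and 931 with 12 arrays (members 0, 0 and 0), 238, 242 and 292 when tested against 2-fold (members 0, 0 and 1), and 7457, 8500 and 6331 with no fold threshold (members 5 over time). They numbered 8310 at matched time with ribosomal protein centring and 2256 over time with a pseudocount of 64. Members called were 1 against 30 min with median centring, and 1 over time with adjusted p under 0.01 or the mean of probe sets. At matched time, leaving out 1 array at a time gave -0.18 to 0.0028 for Eomes, -0.020 to 0.078 for Gata3 and -1.05 to 0.014 for Bach2. It gave 2969 to 3174, 3327 to 3658 and 2557 to 3053 probe sets, and 3, 1 to 2 and 2 to 3 members. With the replicate block 3187, 3578 and 2854 probe sets and 3, 2 and 2 members were called; the deviations of same-numbered arrays from their group means correlated at -0.018 to 0.216 over 10 pairs, 2 of them over 0.1, and by these deviations 7 of 11 arrays were most like their own number. Within the scan day holding both groups, 2508 probe sets and 2 members were called against 30 min. Scan day as a random block kept the count of members called at 3, 2 and 2. Where no cause is shown by the alternative's construction, the cause was not tested.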
